A study of Homo sapiens with 10 samples.

Results

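The gut endoderm transcription factors GATA4, GATA6, HNF4A, FOXA1, FOXA2, CDX1, CDX2 and KLF5 were followed across sorted and unsorted gastric cancer cells through every probe set annotated with exactly 1 of these symbols. That gave 17 probe sets for 7 of the 8 genes, among 41097 single-symbol probe sets for 19775 genes. HNF4A had no such probe set and was not analysed here. The 8 genes were selected on intensities of these same arrays, as seen in an earlier look at the side population, non-side population and unsorted values. No record says which comparison guided the choice, so all their differences between groups are given as a description. Where factors called by the fit over all genes are counted, the count stands beside the share of all genes and supports nothing.

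The arrays held total RNA from cultured human gastric cancer cells. Side population cells and non-side population cells had 4 arrays each, lettered a to d, and unsorted cells had 2, lettered a and b. A side population is the small fraction of a culture that stains weakly with a DNA-binding dye because transporters in the membrane export it, and the non-side population is the brightly stained remainder. AGS and MKN 45 are established gastric carcinoma lines. Both lines appear in the origin label of every array. The source label names AGS on 8 arrays, and on side population replicates a and b it names no line. The titles place the side and non-side population arrays of a letter in the same replicate group, SPa to SPd. They do not say what the arrays of such a group share. No genotype or drug treatment was given for any group, and nothing said whether replicates were separate cultures, so the spread between arrays may be technical.

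GATA4 and GATA6 are zinc finger factors that specify endoderm and keep gastric and intestinal epithelium in its regional identity, and GATA6 is amplified in a share of gastric cancers. FOXA1 and FOXA2 are forkhead pioneer factors that open chromatin at endodermal enhancers. CDX1 and CDX2 are homeobox factors of the intestine that are absent from normal stomach and appear in intestinal metaplasia. KLF5 is a Krüppel-like factor of proliferating gut epithelium that works beside GATA4 and GATA6 in gastric cancer cells.

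The values were intensities on a linear scale that the authors had brought to a common mean per array, between 0.1 and 74993.2 over all probe sets. Array medians lay between 58.7 and 85.4, and a value below its array's median is called low here. The actin control had a 3' to 5' ratio of 3.34 in side population replicate a, against 0.987 to 1.28 elsewhere. The GAPDH control had a ratio of 1.87 on the same array, against 0.864 to 1.06 elsewhere. The 18S ribosomal RNA signal at the 5' control was weak, though above the array medians, on side population replicate d (851.2), non-side population replicate c (563) and both unsorted arrays (274.6 and 828.3). The other 6 sorted arrays had at least 22182.4. The 5 epithelial markers EPCAM, KRT8, KRT18, KRT19 and CDH1 were above the array median on all 10 arrays. Of the 6 fibroblast markers 1, COL1A1, was above it on all arrays, and 0 of the 4 blood and 0 of the 3 endothelial markers were. Summed blood markers read 228.9 to 375.2 in side population, 222.9 to 386.3 in non-side population and 203.7 to 248 in unsorted cells.

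The 250 bases before the annotated start of GATA6, the gene with the largest difference, and of CDX2, the one after it in side population cells, are shown because GATA, FOXA, CDX and KLF factors are themselves regulators whose short recognition words can be looked for there. Both are RefSeq sequences of GRCh38.p14, 5' to 3' on the strand of the gene. Of the 7 genes with a probe set, 4 had a start in that table. The GATA6 window lies at chr18:22169339-22169588 on the plus strand and the CDX2 window at chr13:27969316-27969565 on the minus strand. The word searched for GATA factors was AGATAA, the one for CDX factors TTTATG, the one for FOXA factors TGTTTAC and the one for KLF factors CCACCC. Capitals mark matches on either strand to any of these 4 words, none of which overlapped another.
GATA6: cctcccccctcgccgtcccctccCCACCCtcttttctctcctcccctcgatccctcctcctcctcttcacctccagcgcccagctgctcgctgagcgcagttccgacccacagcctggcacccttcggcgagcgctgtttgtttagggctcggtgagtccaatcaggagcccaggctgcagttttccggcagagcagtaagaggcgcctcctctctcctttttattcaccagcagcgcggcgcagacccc
CDX2: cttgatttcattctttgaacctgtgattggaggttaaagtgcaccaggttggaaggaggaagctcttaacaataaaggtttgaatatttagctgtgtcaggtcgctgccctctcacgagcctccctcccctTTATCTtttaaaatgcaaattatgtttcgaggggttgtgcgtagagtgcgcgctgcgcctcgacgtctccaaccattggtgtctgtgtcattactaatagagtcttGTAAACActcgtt
The GATA6 window held 1 CCACCC word at positions -227 to -222 relative to the start and had a GC content of 64.4%. The CDX2 window had a GC content of 45.2%, against a median of 58% over all windows, and held 1 reverse-strand AGATAA word and 1 reverse-strand TGTTTAC word. AGATAA was found in 9.17% of all 35116 such windows, TTTATG in 9.64%, TGTTTAC in 2.98% and CCACCC in 31.3%. The windows of FOXA1 and of both annotated starts of KLF5 held 0 of the 4 words. A match describes these letters only, and binding was not measured.

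GATA6 separated sorted from unsorted cells. Its main probe set, 210002_at, read 2331.5, 1873.5, 1931.4 and 3082.5 in side population replicates a to d. It read 1345.2, 1036.3, 1726 and 3039.4 in non-side population replicates a to d, against 7596.6 and 8426.2 in unsorted replicates a and b. All 8 sorted arrays lay below both unsorted arrays, and the highest sorted value was the side population one of letter d. The mean was 2305 ± 557 in side population (SD, n = 4), 1787 ± 881 in non-side population (n = 4) and 8011 ± 587 in unsorted cells (n = 2). The difference from unsorted cells was -1.82 ± 0.36 for side population cells and -2.28 ± 0.36 for non-side population cells on the log2(intensity + 6.1) scale (SE of the fit over all probe sets), which is 3.54-fold and 4.85-fold lower. Side population cells were above non-side population cells by 0.46 ± 0.29, with values that overlapped. Both sorted populations lay below the unsorted cells, and sorting itself goes with that same split of arrays. Its part cannot be told apart and was not tested. In these bulk samples, fewer cells that express a gene and less RNA per cell cannot be told apart either.

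The 18S signal was weak on both unsorted arrays and on 1 array of each sorted population. Those sorted arrays read 3082.5 for GATA6 in side population replicate d, the highest sorted value, and 1726 in non-side population replicate c. The part of the 18S signal in the difference was not tested. On GATA4 1553131_a_at, GATA4 1570276_a_at and FOXA2 210103_s_at all arrays with weak 18S signal read above all others. This was so on no other probe set of the factors, and the part of the 18S signal there was not tested either. With only arrays whose source label names AGS the GATA6 difference was -1.71 ± 0.44 for side population and -2.28 ± 0.38 for non-side population cells. It was -1.90 and -1.75 for side population cells without unsorted replicates a and b, and -2.35 and -2.20 for non-side population cells. The second GATA6 probe set, 229282_at, was above its array's median on 4 of 10 arrays. It read 117.9, 92.1, 17.1 and 100.8 in side population cells and 16.1, 33.6, 22.6 and 45.5 in non-side population cells, against 54.3 and 106 in unsorted cells. On this low probe set side population and unsorted cells overlapped (-0.15 ± 0.67), while all non-side population arrays lay below both unsorted ones (-1.28 ± 0.67). Side population cells were above non-side population cells there by 1.13 ± 0.55, with overlap. For side population cells the separation from unsorted cells was therefore seen on 1 of the 2 probe sets, and for non-side population cells on both.

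**Figure D1:**
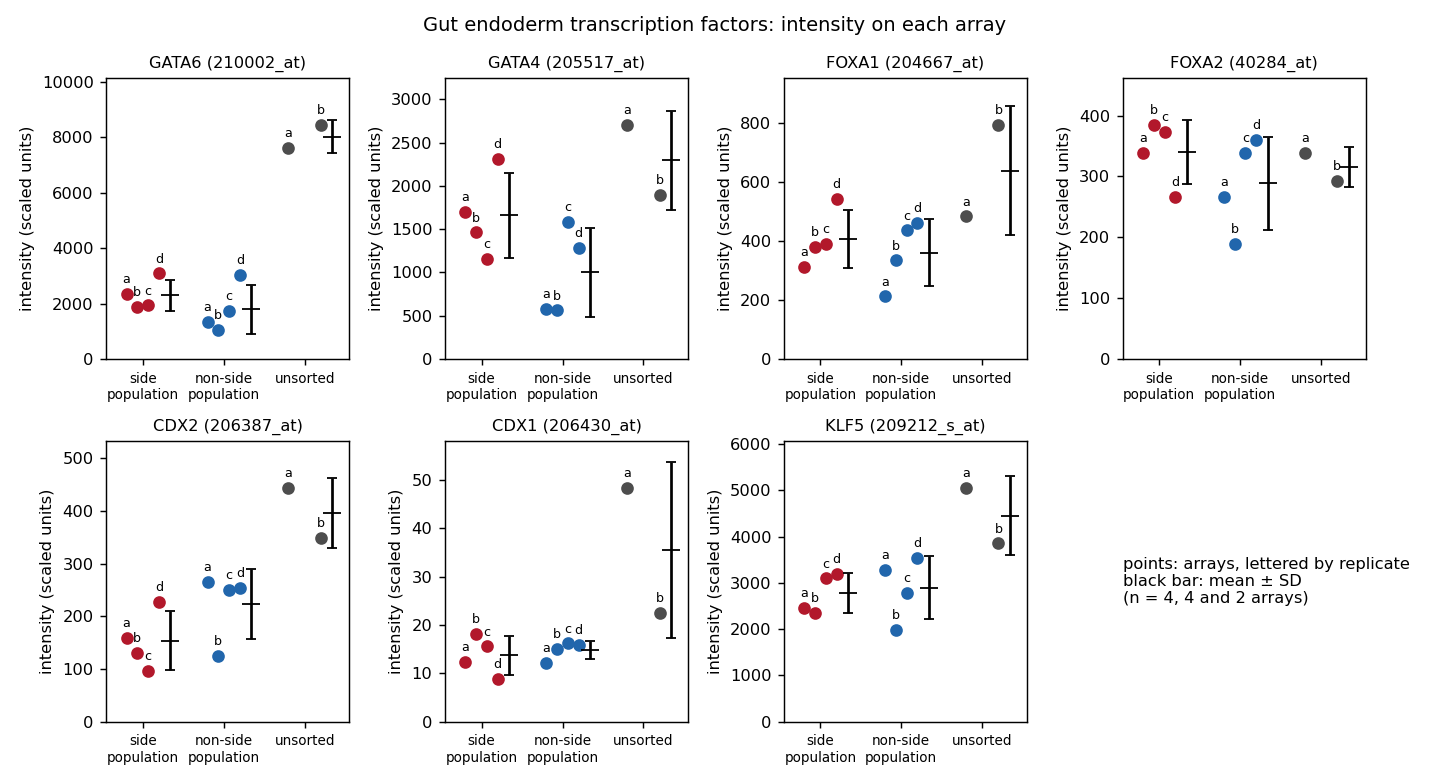
Intensity (linear, scaled by the authors) of the probe set that represents each of the 7 genes. Points are arrays lettered by replicate and black bars the mean ± SD over 4 side population, 4 non-side population and 2 unsorted arrays; GATA6 sits between 1036.3 and 3082.5 on the sorted arrays and at 7596.6 and 8426.2 on the unsorted ones.

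GATA4, the close relative of GATA6, was lower than in unsorted cells on its 3 brightest probe sets. Its brightest probe set, 205517_at, read 1699.9, 1462.8, 1160.5 and 2315.5 in side population cells. In non-side population cells it read 582.9, 562.6, 1581.4 and 1281.2, against 2701.6 and 1893.8 in unsorted cells. The non-side population arrays were all below the unsorted ones (-1.32 ± 0.42), while side population replicate d lay between the unsorted arrays (-0.49 ± 0.42 for the group). Side population cells were higher than non-side population cells by 0.83 ± 0.34, a 1.77-fold difference, with groups that overlapped.

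Between side and non-side population, GATA4 differed by 1.45 ± 0.30 within letters a and b and by 0.20 ± 0.30 within letters c and d. The gap between those values was 1.25 ± 0.43. For GATA6 the values were 0.82 ± 0.30 and 0.09 ± 0.30, with a gap of 0.73 ± 0.42. The division of letters was known from earlier results of these data, and side population replicates a and b carry the source label that names no line, so population and label cannot be told apart there. Side population replicate a also carried the raised actin and GAPDH ratios, whose part was not tested.

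The other 4 GATA4 probe sets did not all show this. On 1553131_a_at the values were 125.3, 268.2, 367.6 and 713.4 in side population cells and 252.7, 176, 879.7 and 416.1 in non-side population cells, against 966.1 and 839.7 in unsorted cells. Here the populations overlapped throughout (-0.22 ± 0.51), and side population cells were below unsorted ones by -1.53 ± 0.63. On 1570276_a_at side population cells differed from non-side population cells by 0.16 ± 0.44 and from unsorted cells by -0.99 ± 0.54. On both of these probe sets, side population replicate d, non-side population replicate c and both unsorted arrays read highest. Those are the arrays with weak ribosomal RNA signal, whose part in these differences was not tested. The sign against unsorted cells turned on 243692_at (1.05 ± 0.57 for side population, 0.78 ± 0.57 for non-side population cells), which read 58.8 to 288.4 in side population, 82.8 to 213.6 in non-side population and 61.2 to 79.1 in unsorted cells. The dimmest, 230855_at, was above the array median on 5 of 10 arrays and differed from unsorted cells by 0.17 ± 0.52 in side population cells and 0.29 ± 0.52 in non-side population cells.

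**Figure D2:**
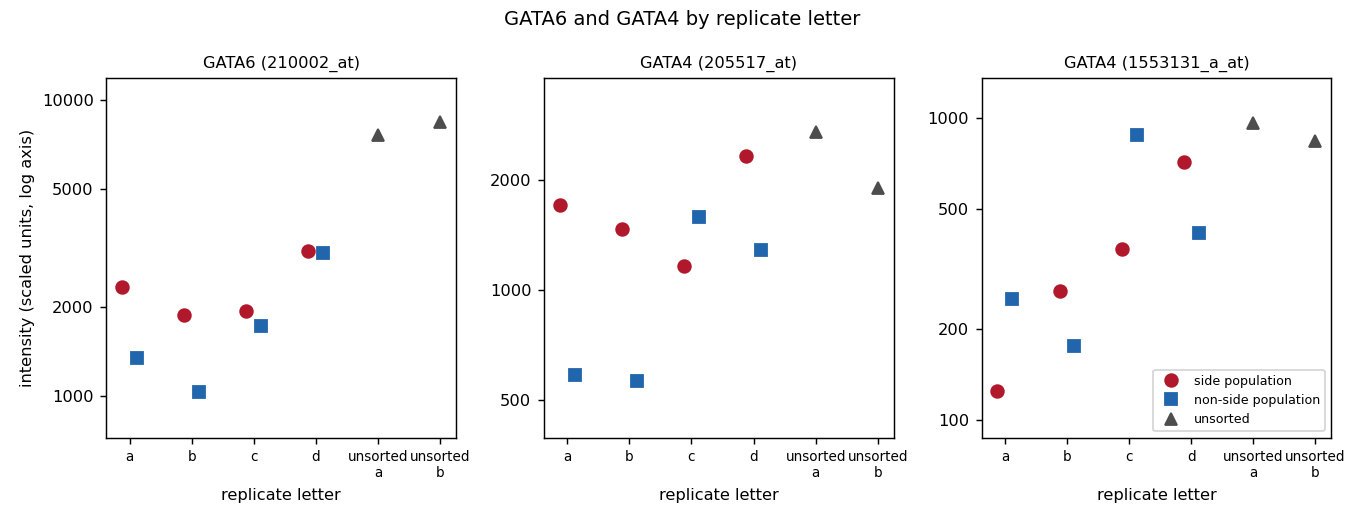
Intensity (log axis) of GATA6 and of 2 GATA4 probe sets by replicate letter, with side population as circles, non-side population as squares and the 2 unsorted arrays as triangles at the right. On 205517_at the side population points of letters a and b (1699.9 and 1462.8) stand above the non-side population points (582.9 and 562.6), while on 1553131_a_at the order differs between letters.

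For the forkhead factors the sign or size of the difference from unsorted cells depended on the probe set. FOXA1 on 204667_at read 312.3, 380.5, 389.9 and 543.4 in side population cells and 212.5, 334.8, 436.2 and 460.4 in non-side population cells, against 483.8 and 793.3 in unsorted cells. Side population replicate d exceeded unsorted replicate a, so those groups overlapped (-0.63 ± 0.36), and the non-side population lay below both unsorted arrays (-0.83 ± 0.36). The dimmer FOXA1 probe set 237086_at had the opposite sign, at 0.95 ± 0.55 for side population and 1.24 ± 0.55 for non-side population cells. It read 63.1 to 234.3 in side population cells and 99.6 to 304.4 in non-side population cells, against 61.6 and 86.1 in unsorted cells. All 4 non-side population arrays lay above both unsorted ones there, and side population cells overlapped them.

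FOXA2 on 40284_at read 338.7, 384.3, 372.6 and 266.8 in side population cells and 266.2, 189.8, 338.6 and 359.5 in non-side population cells, against 339.3 and 292.5 in unsorted cells. All 3 groups overlapped, with differences from unsorted cells of 0.10 ± 0.32 in side population cells and -0.17 ± 0.32 in non-side population cells. A second FOXA2 probe set, 210103_s_at, read 109.8 to 202.4 in side population cells and 111.4 to 247.3 in non-side population cells, against 254.1 and 323.2 in unsorted cells. There all sorted arrays lay below both unsorted ones, by -0.79 ± 0.39 and -0.89 ± 0.39. The highest sorted values were 202.4 in side population replicate d and 247.3 in non-side population replicate c. Those arrays share a weak ribosomal RNA signal with the unsorted ones, and its part in these differences was not tested. The third, 214312_at, was low on all 10 arrays, with differences of -0.30 ± 0.60 and -0.09 ± 0.60.

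The intestinal factor CDX2 was lower in sorted cells on its brighter probe set. On 206387_at it read 159.3, 130.4, 96 and 228 in side population cells and 264.9, 124.9, 250.1 and 253.3 in non-side population cells, against 443.6 and 349.1 in unsorted cells. All 8 sorted values lay below both unsorted ones, by -1.39 ± 0.41 in side population (2.62-fold lower) and -0.86 ± 0.41 in non-side population cells (1.81-fold lower). Side population cells were below non-side population cells by -0.53 ± 0.33 with overlapping values, since non-side population replicate b read 124.9. The other CDX2 probe set, 231606_at, was above the array median on 6 of 10 arrays and overlapped between all groups (-0.58 ± 0.51 and -0.45 ± 0.51 against unsorted cells).

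CDX1, the other intestinal homeobox gene, was low on all 10 arrays and below the filter. It read 8.8 to 18.2 in side population cells and 12.2 to 16.2 in non-side population cells, against 48.4 and 22.6 in unsorted cells. All these values lie under the array medians, so its differences of -1.02 ± 0.45 and -0.92 ± 0.45 come from the dimmest part of the scale.

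KLF5 was bright in every group, and its 2 probe sets had nearly the same differences. On 209212_s_at it read 2453.1, 2353.6, 3098.7 and 3204.2 in side population cells and 3286.9, 1988.9, 2779.8 and 3542 in non-side population cells, against 5055.5 and 3855.2 in unsorted cells. All sorted values lay below both unsorted ones, by -0.68 ± 0.27 in side population cells and -0.64 ± 0.27 in non-side population cells. On 209211_at the differences were -0.65 ± 0.29 and -0.64 ± 0.29, with non-side population replicate b, at 3507.7, above unsorted replicate a, at 3391.1. The sorted populations differed from each other by -0.04 ± 0.22 and -0.01 ± 0.23, so neither direction stood out from its error.

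**Figure D3:**
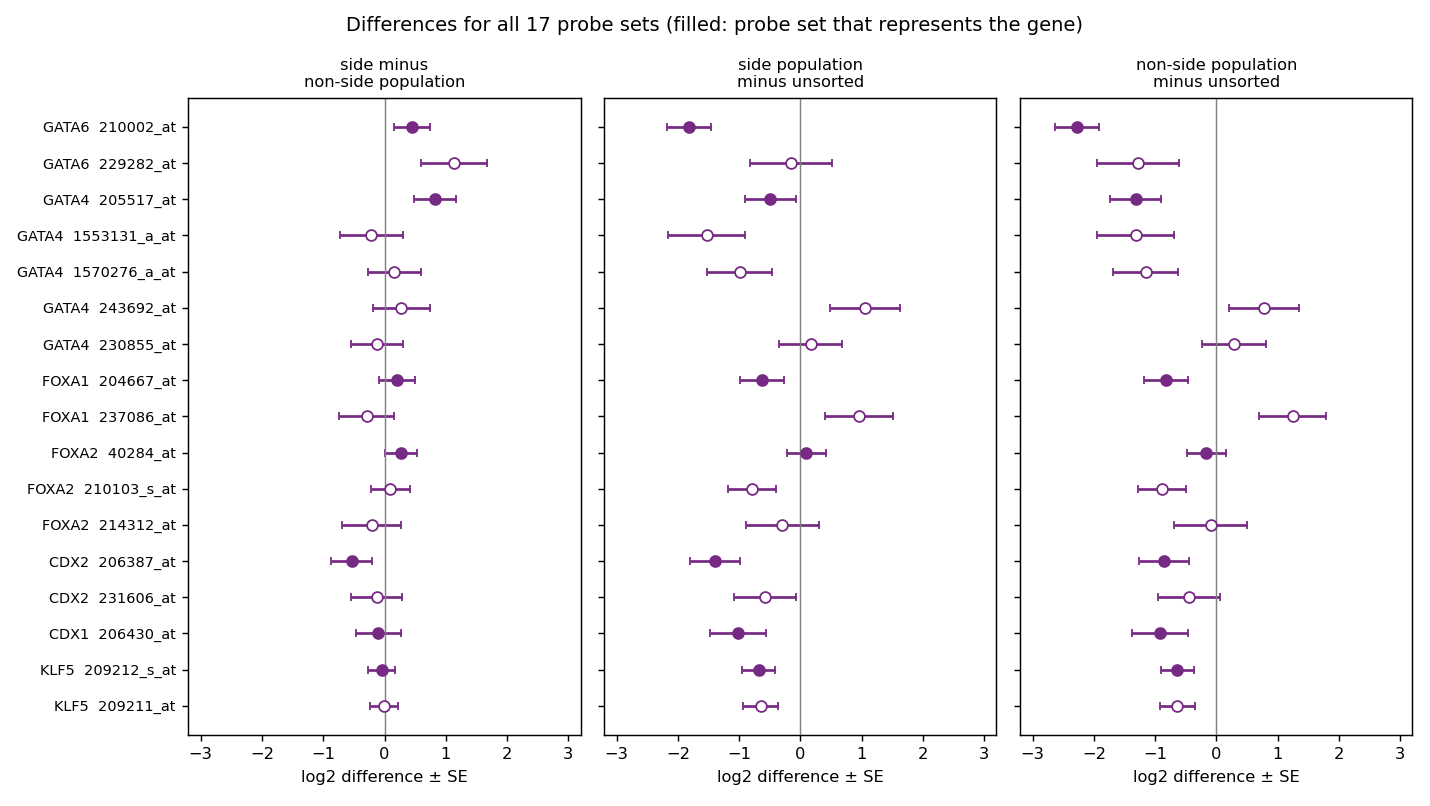
Log2 differences ± SE for all 17 probe sets in the 3 comparisons; filled points are the probe sets that represent a gene. GATA6 210002_at stands farthest left against unsorted cells, while FOXA1 237086_at and GATA4 243692_at lie right of 0.

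On the probe sets that represent the genes, the order of group means was unsorted, side population, non-side population for GATA6, GATA4 and FOXA1. It was unsorted, non-side population, side population for CDX2, CDX1 and KLF5. For FOXA2 it was side population, unsorted, non-side population, with all neighbours overlapping. Other probe sets of CDX2 and KLF5 kept their order, while others did not. By linear means, side population cells were lowest on GATA4 1553131_a_at and 1570276_a_at and highest on GATA6 229282_at. On the log2 scale they were instead above non-side population cells on 1570276_a_at (0.16 ± 0.44) and below unsorted cells on 229282_at (-0.15 ± 0.67). Unsorted cells were lowest on GATA4 243692_at and FOXA1 237086_at and highest on FOXA2 210103_s_at. In each of the 7 genes the side and non-side population arrays overlapped, so by the overlap of groups their order did not exceed the spread between arrays. That comparison does not use the shared letters. Letter by letter, side population cells were higher in 4 of 4 letters for GATA6 on 210002_at and in 3 of 4 for GATA4 on 205517_at. For CDX2 on 206387_at they were higher in 1 of 4.

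Set against all genes, the counts were as follows. Between side and non-side population 0 of the 6 factors that passed the filter were called by limma at an adjusted p under 0.05, beside 0% of the 9888 genes tested. Limma's smallest adjusted p over all genes was 0.992, and 430 genes, 4.35%, had an unadjusted p under 0.05. Between those populations 0 of 7 genes had groups that did not overlap, beside 1.32% of all genes on the lower and 0.936% on the higher side.

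Against unsorted cells, GATA6 was the 1 factor called lower in side population cells, where 0.536% of genes were called lower, and the 1 called lower in non-side population cells, where 1.15% were. Both comparisons share the 2 unsorted arrays. In each, GATA6 was no longer called without unsorted replicate a or without replicate b, and in side population cells also with only AGS-labelled arrays. Non-overlapping lower values were found for 4 of the 7 genes in side population cells (11.6% of all genes) and for 6 of 7 in non-side population cells (11.3% of all genes). Non-overlapping higher values were found for 0 of 7 in both. For these the share of all genes is not given here, and that of single-symbol probe sets was 15.7% and 15.8%. Among the 17 probe sets 8 were lower without overlap in each population (beside 13.1% of single-symbol probe sets for side and 11.1% for non-side population cells), while 0 were higher in side population cells (beside 15.7%) and 2, GATA4 243692_at and FOXA1 237086_at, were higher in non-side population cells (beside 15.8%). For GATA6, CDX2, CDX1 and KLF5, 4 of 7 genes, all 8 sorted arrays lay below both unsorted arrays, beside 6.22% of all genes. Over all probe sets of the factors this held for 5 of 17, beside 6.69% of single-symbol probe sets. Since the genes were chosen with such results in view, nothing is read from these counts.

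The arrays on which the factors were high were compared with GATA6 as a description. Over the 10 arrays Pearson's r with GATA6 on the log2 scale was 0.807 for KLF5, 0.778 for GATA4, 0.775 for FOXA1, 0.706 for CDX2 and 0.305 for FOXA2. Over the 8 sorted arrays alone it was 0.83 for GATA4, 0.652 for FOXA1, 0.586 for KLF5, 0.564 for FOXA2 and 0.293 for CDX2. The 2 unsorted arrays stand apart and weigh on the first set, and all arrays share a common scaling. Outside the 8 factors the genes most like GATA6 over the 10 arrays were NUP153, of the nuclear pore (r = 0.970, and 0.892 on sorted arrays), UNC5CL (0.964 and 0.939), MB21D2 (0.962 and 0.906), TIGD2 (0.961 and 0.913) and KBTBD7 (0.960 and 0.817). The genes most opposite to it were KCNJ2, a potassium channel (-0.969 and -0.906), TBRG1 (-0.969 and -0.861), TSC22D1 (-0.962 and -0.874), TSPAN9 (-0.962 and -0.900) and THAP10 (-0.955 and -0.874).

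Other regulators of gut endoderm showed no common direction. Of 25 listed genes, 22 had a probe set, 10 passed the filter, and limma called 0 in any of the 3 comparisons. The median log2 difference of the 10 was 0.11 between side population and unsorted cells and -0.14 between non-side population and unsorted cells, beside 0.04 and -0.01 over all genes tested. KLF6, another Krüppel-like factor, had mean intensities of 11812 ± 2035 (side population, n = 4), 10422 ± 1859 (non-side population, n = 4) and 6274 ± 478 (unsorted, n = 2; SD), with differences of 0.90 ± 0.24 and 0.72 ± 0.24 that did not pass (limma, adjusted p = 0.0652 and 0.117). SOX2, a factor of the stomach and foregut, was at -1.50 ± 0.52 and -1.18 ± 0.52 (limma, adjusted p = 0.144 and 0.23). ELF3, an epithelial ETS factor, was at -0.87 ± 0.28 and -0.73 ± 0.28 (limma, adjusted p = 0.113 and 0.161). EHF, also an epithelial ETS factor, had the opposite sign, with means of 282 ± 160 (side population, n = 4) and 302 ± 208 (non-side population, n = 4), against 43 ± 9.48 (unsorted, n = 2; SD). It passed the filter only through its sorted arrays. In side and non-side population replicates b EHF read 47 and 70, under those arrays' medians, against 49.7 and 36.3 in unsorted replicates a and b. Its differences of 2.21 ± 0.79 and 2.31 ± 0.79 did not pass (limma, adjusted p = 0.157 and 0.124). They passed without side population replicate b (limma, adjusted p = 0.0385 and 0.0447), and the difference of non-side population cells also did without non-side population replicate b (0.0382). They are 1.93 and 1.89 with values under an array's median raised to it. Single arrays also moved the others past the threshold: KLF6 passed in side population cells without non-side population replicate c (limma, adjusted p = 0.0325), SOX2 in both populations without non-side population replicate b (0.0422 and 0.0371), and ELF3 in side population cells without side population replicate d (0.0475). Among 7 cofactors of GATA and FOXA proteins, 5 passed the filter and 0 were called, with 4 negative in side population cells and 5 negative in non-side population cells relative to unsorted cells.

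Among the gastric, hepatic secreted protein and intestinal genes listed that passed the filter, TFF1 and FGB were called higher in both sorted populations and 0 were called lower. FGB passed the filter only through its sorted arrays. In each of these lists the filter used the mean over all arrays, most of them sorted. It favoured genes that are high in sorted cells, so the lack of genes called lower may partly reflect the filter. Whether the endoderm factors regulate the listed genes in these cells was not tested. Of 20 gastric genes 5 passed the filter, and TFF1, a trefoil peptide of the gastric surface that is a GATA target, was the 1 called higher in both. TFF1 read 1286.4, 1415.3, 1233.6 and 1079.4 in side population cells and 1366, 2059.5, 1102.8 and 1208.4 in non-side population cells, against 468.7 and 499.6 in unsorted cells. All sorted arrays were above both unsorted ones, by 1.36 ± 0.27 (limma, adjusted p = 0.0225) and 1.51 ± 0.27 (limma, adjusted p = 0.0095). TFF1 was not called without either unsorted array (adjusted p between 0.118 and 0.36 by limma), nor in side population cells with AGS-labelled arrays only (0.104) or without side population replicates a or b (0.0556 and 0.0503). Percentages called higher over all genes were 1.81% in side population cells and 2.37% in non-side population cells.

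Of 18 hepatic secreted protein genes, 17 had a probe set and 5 passed the filter, and all 5 were positive in both sorted populations. The filter used the mean over all 10 arrays, most of them sorted, so it favoured genes that are high in sorted cells. FGB, the fibrinogen beta chain, was the 1 called. It read 5.4 and 26.4 in unsorted replicates a and b and passed the filter only through its sorted arrays. Its mean was 325 ± 66.3 over the side population arrays and 376 ± 224 over the non-side population arrays (n = 4 for both), against 15.9 ± 14.8 over the unsorted pair (SD). The rise of 4.08 ± 0.47 and 4.16 ± 0.47 (limma, adjusted p = 0.000963 and 0.000761) starts from values below the unsorted arrays' medians, and is 2.31 and 2.39 with values under an array's median raised to it. Its partner FGG, the gamma chain, was at 1.32 ± 0.54 and 1.52 ± 0.54 and did not pass (limma, adjusted p = 0.222 and 0.14). Of 20 intestinal genes 4 passed the filter and 0 were called, with medians of 0.88 and 0.70. These lists were drawn up with earlier results of the data known.

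MET, which is amplified in MKN 45 cells, was looked at because the labels name both lines. It read 3875.2, 2232.3, 3721.8 and 2586 in side population cells and 2319.4, 1334.3, 3346.3 and 2842.5 in non-side population cells, against 1269.5 and 1218.5 in unsorted cells. All sorted arrays were higher than both unsorted ones, by 1.28 ± 0.34 and 0.90 ± 0.34, which did not pass (limma, adjusted p = 0.0652 and 0.165). Without non-side population replicate b both passed (limma, adjusted p = 0.0208 and 0.0356), and without replicate c the difference of side population cells did (0.0461). The side population arrays whose source label names no line, at 3875.2 and 2232.3, were the highest and the lowest of that group. Its part in the differences of the endoderm factors was not tested.

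**Figure D4:**
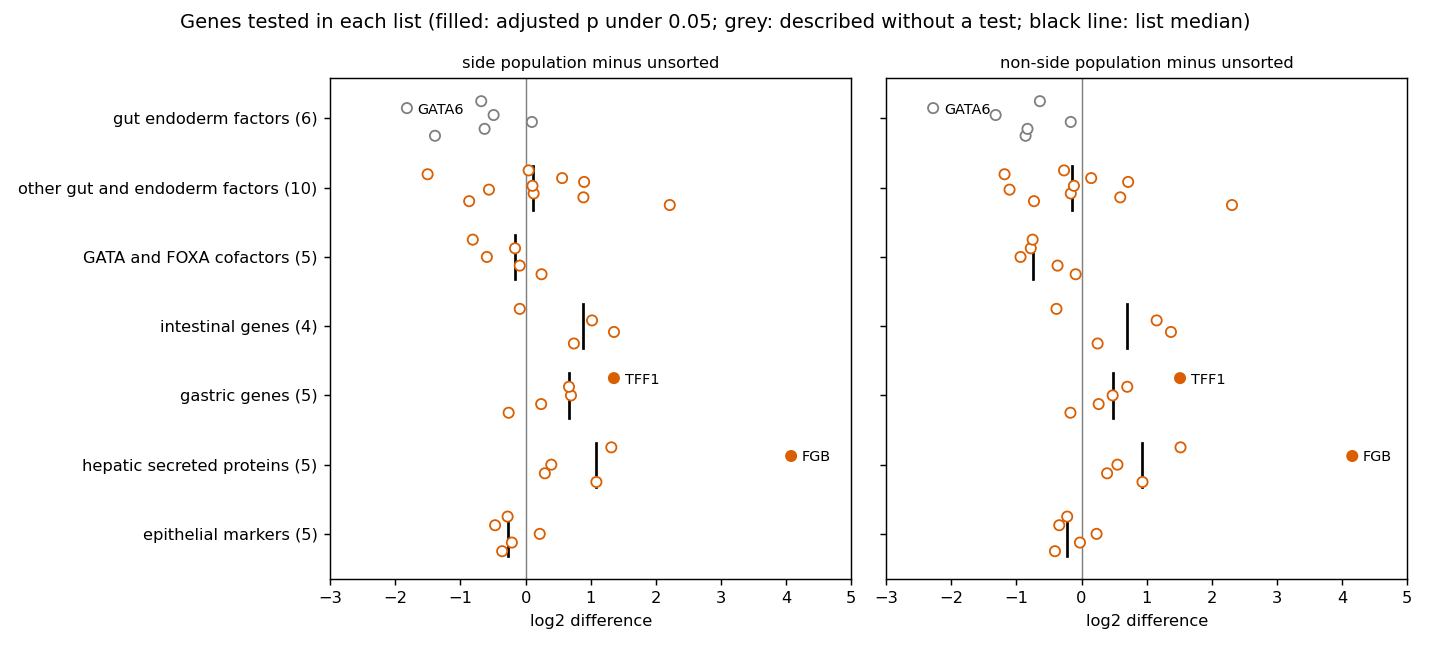
Log2 differences from unsorted cells for the genes of each list that passed the filter (number in parentheses), with side population at the left and non-side population at the right. Filled points passed the test, grey points are the factors described without a test, and black lines are list medians; TFF1 and FGB lie to the right and GATA6 to the left.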

How the data were processed

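Total RNA was measured on 10 single-channel arrays of 54675 probe sets. The deposited intensities were linear. GCOS 1.4 appears in the submitters' processing notes, its role and the summary algorithm being not given in the sources used here. On every array the mean with 2% left out at each end was 500.065 to 500.095, so no scaling was added. Names came from the array's platform annotation, which gave 41097 probe sets 1 symbol, 1801 several and 11777 none. Intensities were raised by 6.1 (their 10th percentile) and put on the log2 scale, so folds understate changes of dim genes. Genes were represented by their brightest probe set, and those at or above the median (intensity 148.8) were tested, 9888 of 19775. The test was limma 3.58.1 in R 4.3.3 (lmFit and eBayes with a trend, all 10 arrays, 3 groups), with Benjamini-Hochberg adjustment and calls at an adjusted p under 0.05. SEs of the factors come from the same model over all 41097 probe sets. The number of arrays, above all the 2 unsorted, limits the precision. The test was checked on simulated data. No pair of arrays was identical. All probe sets of the 8 genes are described; of the other lists, genes called and examples of small p are named, and for likeness the 5 highest and 5 lowest r. Members and lists were chosen with earlier results of these data known.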

Additional observations from a re-analysis of the deposited data

Results flagged for a closer look

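In 34 groups of 4 arrays (17 probe sets in 2 sorted populations), 2 held an array far from the other 3, and about 1 in 20 groups is marked this way by chance. CDX2 on 206387_at read 124.9 in non-side population replicate b, against 250.1 to 264.9 in the other 3. FOXA2 on 214312_at, which was low on all arrays, read 62.5 in side population replicate d, against 21.9 to 26.7 in the others.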

How the results depend on the processing

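Against unsorted cells GATA6 on its main probe set kept its sign in all 25 alternatives, between -2.12 and -1.71 in side population and between -2.75 and -1.80 in non-side population cells. Since the factors were selected on these arrays, the counts of factors called below are descriptions and support nothing. Of the 232 genes called between side population and unsorted cells and the 348 between non-side population and unsorted cells, the counts were 100 and 144 with a filter at the 75th percentile and 431 and 736 with every probe set on its own. They were 437 and 196 with only the compared groups, and 94 in side population cells with only AGS-labelled arrays, where 0 of the factors were called. Leaving out 1 array gave 9 to 393 genes and 0 to 2 factors in side population, and 12 to 656 genes and 0 to 2 factors in non-side population cells. The lowest counts were those without unsorted replicate a. With the replicate letter as a block (replicate block) there were 734 and 967 genes, with 2 factors (GATA6 and CDX2) and 3 (GATA6, GATA4 and FOXA1). Same-letter arrays of the sorted populations had deviations from their group means that correlated at 0.212, 0.498, -0.117 and 0.364 for letters a to d. The most alike non-side population array was the same-letter one for side population replicates a and b. For replicate c it was d, and for replicate d it was c. The main test did not take the letters to pair arrays. Letter by letter, side population cells were higher than non-side population cells in 4 of 4 letters for GATA6 on 210002_at and in 3 of 4 for GATA4 on 205517_at, and with the replicate block these differences were 0.46 ± 0.23 and 0.83 ± 0.28 and not called. Letters a and b against c and d as a batch term gave 861 and 1170 genes and again 2 and 3 factors. Within letters a and b there were 1359 and 2198 genes with 3 and 4 factors, and within letters c and d 840 and 1179 genes. Between side and non-side population 0 genes were called in all but 2 alternatives, 1 gene with a constant of 64 and 905 within letters a and b, GATA4 the 1 factor among them. Leaving out 1 array gave 0 genes and 0 factors there. The causes were not tested. CDX1 could not be tested after the filter, and the dim probe sets of each factor limit what they show.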
